A study of Rattus norvegicus with 36 samples.

Results

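The genes described here encode acute phase plasma proteins that the liver secretes, together with the cytokine signalling inhibitor Socs3. A list of 10 genes was used: A2m, Hp, Orm1, Crp, Lbp, Cp, Itih4, Saa4, Hpx and Socs3. A gene was taken as measured where at least 1 probe set of the array names that gene and no other. On this rule 9 of the 10 genes were measured, by 11 of the 31042 probe sets tested, out of 14217 genes with such a probe set. The probe set of Saa4, a serum amyloid A protein of high density lipoprotein, also names Hps5, so Saa4 has no value here. Cp has 3 probe sets and the other 8 genes have 1 each. The 3 Cp probe sets share their gene and are not independent measurements of it.

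Affymetrix 3′ expression arrays, 1 per animal, were used to read RNA of the liver in 36 male rats of the Harlan Sprague Dawley stock. The rats were 7 weeks old when dosing began, and received TBBPA-DBPE, a brominated flame retardant, in corn oil by oral gavage once a day for 5 days, with necropsy the day after the final dose. The vehicle group received corn oil alone (0 mg/kg), and the dosed groups received 943, 94.3, 9.4, 0.94 or 0.1 mg/kg, with 6 animals in each group. All 6 groups thus share the stock, sex, age, diet, vehicle and number of gavages, and no untreated animals without gavage were analysed here. All values below are log2 expression values per probe set as the authors deposited them, and each dose was compared with the same 6 vehicle animals, so the 5 comparisons are not independent.

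In the acute phase response, cytokines released at a site of injury or infection reach hepatocytes and change the set of proteins that these cells secrete into plasma. Interleukin 6 acts through the receptor subunit gp130 and the transcription factor STAT3, and interleukin 1 and tumour necrosis factor act largely through NF-kB and C/EBP factors. Alpha-2-macroglobulin (A2m) and alpha-1-acid glycoprotein (Orm1) are known as major acute phase proteins of the rat, whereas C-reactive protein (Crp) is abundant in rat plasma without inflammation. Socs3 is induced by STAT3 and shuts gp130 signalling down.

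The array medians lay between 4.59 and 4.66 and single values between 1.43 and 14.43. Pairwise correlations of the arrays lay between 0.989 and 0.997, and vehicle replicate 1 had the lowest median correlation with the others. The labelled tissue was checked against 9 measured hepatocyte markers, which were above the array median on all 36 arrays. The lowest of their mean log2 levels over the animals was 12.07, for Ass1. In bulk liver RNA, fewer cells of a type and less RNA per cell cannot be told apart.

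No acute phase gene passed the test at any dose of TBBPA-DBPE. The difference from vehicle of the 9 genes, each read from its brightest probe set, ranged from -0.27 for Socs3 to 0.27 for A2m, both at 94.3 mg/kg. Neither exceeded the spread between animals in limma's moderated test (adjusted p = 0.796 and 0.912). The median difference over the 9 genes was -0.038 at 0.1, -0.0088 at 0.94, -0.0031 at 9.4, 0.016 at 94.3 and -0.025 at 943 mg/kg. Over all 14217 genes the corresponding medians were 0.0014, 0.0030, 0.0024, 0.0053 and 0.0018. Of the 9 genes, 2 at 0.1, 3 at 0.94, 4 at 9.4, 6 at 94.3 and 2 at 943 mg/kg had a positive difference.

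Of the 11 member probe sets, 0 passed at an adjusted p under 0.05 (limma, Benjamini-Hochberg over 31042 probe sets) at each of the 5 doses, in the F test over the doses and in the trend over dose rank, and the share of all probe sets that passed was 0% in each of these 7 tests. At an unadjusted p under 0.05 in limma, 0 of 11 member probe sets passed at 0.1 mg/kg (5.62% of all probe sets), 0 at 0.94 mg/kg (4.16%), 0 at 9.4 mg/kg (4.85%), 1 at 94.3 mg/kg (6.9%) and 0 at 943 mg/kg (5.74%). The ordinary linear model without moderation gave the same counts of member probe sets at every dose. In the F test 1 of 11 had an unadjusted p under 0.05 (5.35% of all probe sets), and in the trend over dose rank 0 of 11 (5.68%). The probe set counted at 94.3 mg/kg and in the F test was 1 of the 3 for Cp. Values of a dosed group and of the vehicle group did not overlap in 1 of 11 member probe sets at 0.1 mg/kg, also for Cp, where 0.235% of all probe sets had no overlap. No member probe set was without overlap at the 4 higher doses, where the share of all probe sets was, in rising order of dose, 0.206%, 0.184%, 0.296% and 0.261%.

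**Figure D1:**
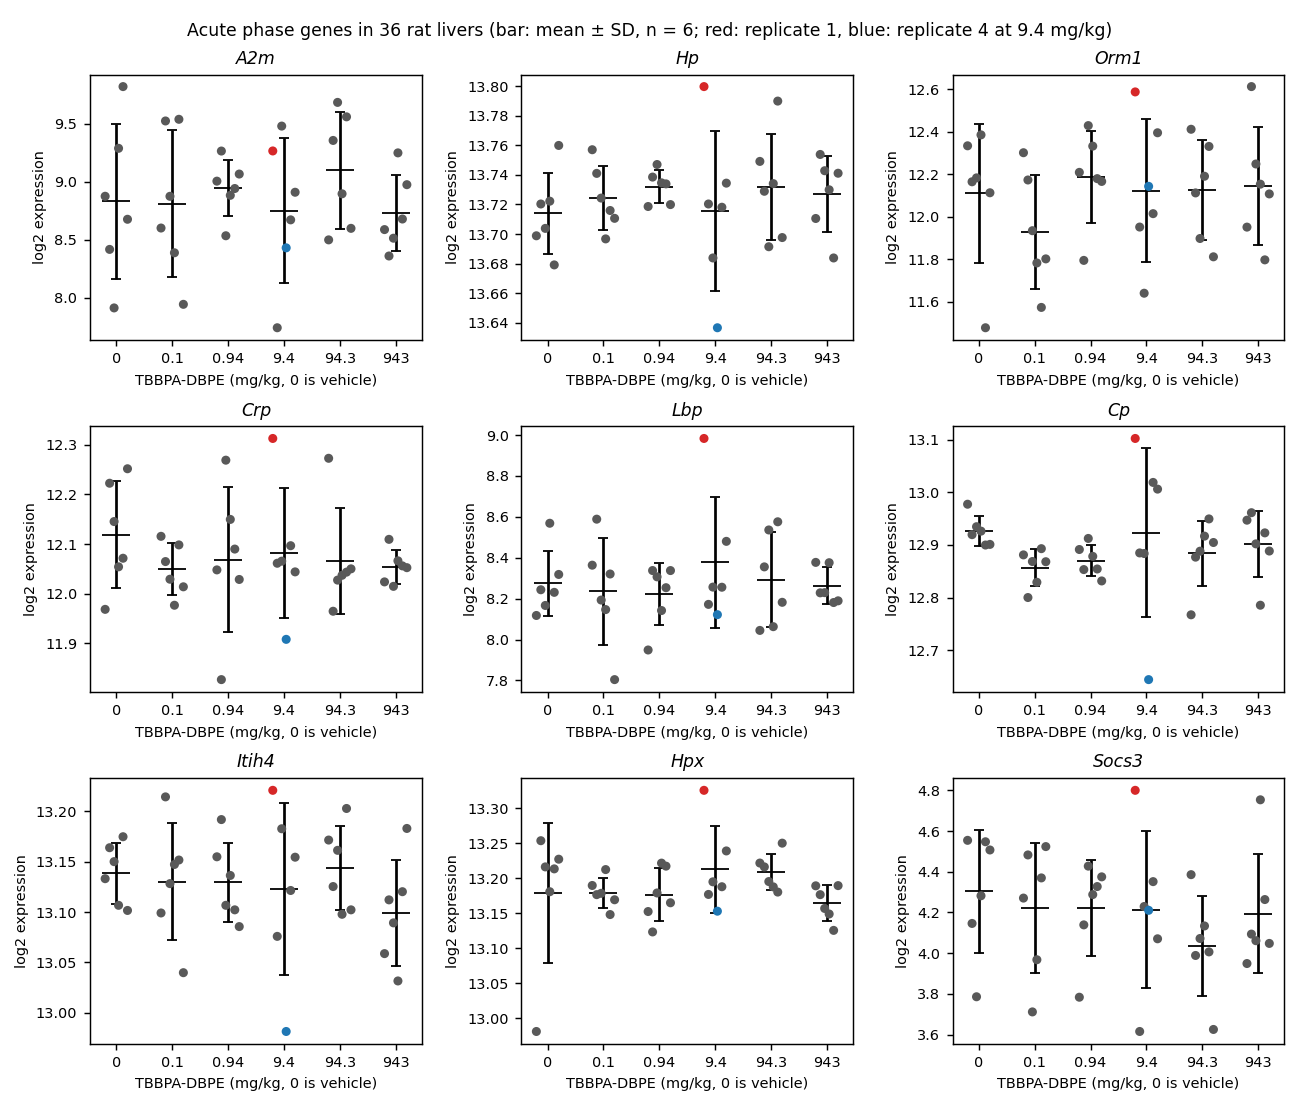
Deposited log2 expression (vertical axis) of the 9 measured acute phase genes against the dose of TBBPA-DBPE in mg/kg, with 1 point per animal and bars for the mean and SD of 6 animals. Groups overlap for each gene except Cp at 0.1 mg/kg, and replicate 1 at 9.4 mg/kg (red) is the highest of the 36 animals in 7 of the 9 panels.

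Sequences around the start of transcription were available for 6 of the 10 genes (Orm1, Crp, Hpx, Cp, Itih4 and Socs3) in RefSeq's rat annotation of build GRCr8. Each window runs from 250 bases before to 50 bases after the start. Cp and Itih4 had values far below their group means in replicate 4 at 9.4 mg/kg. Their windows are printed with those of Orm1, Crp and Hpx, the 3 genes with an entry in a correlated pair (described with the pairs). They are written 5′ to 3′ on the strand of the gene, and capitals mark letters that match a searched core motif.
Orm1, chr5:81788259-81788558, plus strand: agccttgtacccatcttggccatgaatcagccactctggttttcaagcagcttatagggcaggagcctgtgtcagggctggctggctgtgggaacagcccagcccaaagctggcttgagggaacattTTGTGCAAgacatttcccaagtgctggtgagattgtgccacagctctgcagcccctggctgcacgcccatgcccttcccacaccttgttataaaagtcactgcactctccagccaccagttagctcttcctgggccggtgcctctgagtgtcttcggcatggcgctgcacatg
Crp, chr13:87693812-87694111, plus strand: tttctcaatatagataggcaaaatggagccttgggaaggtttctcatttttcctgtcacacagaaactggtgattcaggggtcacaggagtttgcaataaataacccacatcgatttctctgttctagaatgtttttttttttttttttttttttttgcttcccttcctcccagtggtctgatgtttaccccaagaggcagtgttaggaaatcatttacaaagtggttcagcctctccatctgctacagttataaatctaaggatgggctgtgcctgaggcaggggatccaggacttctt
Hpx, chr1:169352106-169352405, minus strand: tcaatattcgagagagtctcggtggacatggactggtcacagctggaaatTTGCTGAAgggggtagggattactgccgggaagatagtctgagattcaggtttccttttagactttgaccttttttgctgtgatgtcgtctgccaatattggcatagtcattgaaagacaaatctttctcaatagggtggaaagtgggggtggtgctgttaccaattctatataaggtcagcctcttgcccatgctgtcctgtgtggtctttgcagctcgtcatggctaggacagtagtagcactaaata
Cp, chr2:104368420-104368719, plus strand: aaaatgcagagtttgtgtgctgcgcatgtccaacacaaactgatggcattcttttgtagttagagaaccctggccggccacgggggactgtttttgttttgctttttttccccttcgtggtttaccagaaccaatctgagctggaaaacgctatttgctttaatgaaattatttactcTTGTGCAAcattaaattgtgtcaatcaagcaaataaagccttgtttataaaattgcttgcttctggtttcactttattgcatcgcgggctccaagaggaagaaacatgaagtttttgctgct
Itih4, chr16:6086735-6087034, plus strand: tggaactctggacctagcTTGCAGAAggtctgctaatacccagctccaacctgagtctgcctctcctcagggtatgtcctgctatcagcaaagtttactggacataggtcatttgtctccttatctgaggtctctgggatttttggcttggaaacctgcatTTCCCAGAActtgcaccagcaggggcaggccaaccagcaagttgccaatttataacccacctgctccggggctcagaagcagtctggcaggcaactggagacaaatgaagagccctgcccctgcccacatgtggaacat
The cores searched on both strands were TTCNNNGAA for STAT3, TTGCNNAA for C/EBP and GGGANNTTC for NF-kB. The C/EBP core was found in 4 of the 6 windows, against 10.6% of 33469 rat promoter windows of the same length. It lies from -123 to -116 in Orm1 and from -72 to -65 in Cp, in both cases on the opposite strand, and from -200 to -193 in Hpx and from -232 to -225 in Itih4. The STAT3 core was found in 1 of 6 windows, Itih4, from -89 to -81, against 8.87% of all windows. The NF-kB core was found in 0 of 6, against 4.05% of all. No match in Crp or Socs3 says only that these letters are not in that window, and no match overlaps another.

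The protease inhibitor genes A2m and Itih4 differed in their variation between animals. A2m, a broad inhibitor that entraps proteases, lay between 7.91 and 9.82 in vehicle livers with a median of 8.78, and between 8.36 and 9.25 at 943 mg/kg with a median of 8.63. The group medians at the 4 lower doses, in rising order, were 8.74, 8.97, 8.79 and 9.13. The vehicle group alone thus held the highest animal of all 36, and all but 1 dosed animal (7.74, at 9.4 mg/kg) lay inside its range. The range of A2m over all animals corresponded to 4.23-fold, and its SD within groups was 0.526, a value that only 0.702% of all probe sets exceeded. The difference at 94.3 mg/kg was 0.27 ± 0.281 (SE, n = 6 per group, 95% interval -0.30 to 0.84, limma adjusted p = 0.912), or 1.20-fold. At 943 mg/kg the difference was -0.10 (interval -0.68 to 0.47, limma adjusted p = 0.971). With this spread between animals, the intervals still hold changes of up to 1.79-fold at 94.3 mg/kg.

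Itih4, a heavy chain of the inter-alpha-trypsin inhibitor family, varied little. Its mean over the 36 animals was 13.13, against 8.86 for A2m, and the part of signal level in this contrast was not tested. Vehicle values lay between 13.10 and 13.17 with a median of 13.14, and values at 943 mg/kg between 13.03 and 13.18 with a median of 13.10. Of the 6 animals at 943 mg/kg, 3 lay below the vehicle range and 1 above it, so the groups overlapped. The difference of -0.039 ± 0.0421 (SE, n = 6 per group) at 943 mg/kg had the smallest p of its 5 differences and did not pass (limma adjusted p = 0.925). Its group medians at the 4 lower doses, in rising order, were 13.14, 13.12, 13.14 and 13.14, and 1 animal at 9.4 mg/kg, at 12.98, lay below all the others.

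The proteins that bind haemoglobin, haem and copper are encoded by Hp, Hpx and Cp. Haptoglobin (Hp) takes up free haemoglobin. Vehicle values lay between 13.68 and 13.76 with a median of 13.71, and values at 943 mg/kg between 13.68 and 13.75 with a median of 13.74. The whole range over 36 animals corresponded to 1.12-fold, and 99.95% of all probe sets had a larger SD within groups than Hp (0.0323). All 6 animals at 0.94 mg/kg lay above the vehicle mean and inside the vehicle range, with a difference of 0.018 ± 0.0352 (SE, n = 6 per group, limma adjusted p = 0.999). Its difference at 943 mg/kg was 0.013 (95% interval -0.058 to 0.084, limma adjusted p = 0.971), so the interval ends at 1.06-fold. The highest value of any probe set on any array was 14.43. Whether probe sets so near the top of the scale (Hp, Hpx, Itih4 and the brightest of Cp) still report differences in proportion was not tested.

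Hemopexin (Hpx) binds free haem and carries it to the liver. Vehicle values lay between 12.98 and 13.25 with a median of 13.21, and the lowest of them, from vehicle replicate 1, was the lowest of all 36 animals. At 943 mg/kg values lay between 13.13 and 13.19 with a median of 13.17, inside the vehicle range. The difference was 0.034 ± 0.0417 (SE, n = 6 per group) at 9.4 mg/kg (limma adjusted p = 0.980) and -0.014 at 943 mg/kg (limma adjusted p = 0.974). Without vehicle replicate 1, the difference at 9.4 mg/kg was -0.0054.

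Ceruloplasmin (Cp) is the copper-carrying ferroxidase of plasma and was the only member with groups that did not overlap. On its brightest probe set, vehicle values lay between 12.90 and 12.98 with a median of 12.92. The 6 animals at 0.1 mg/kg lay between 12.80 and 12.89 with a median of 12.87, all below the vehicle group. At 0.94 mg/kg, 5 of 6 lay below the vehicle range, with a lowest value of 12.83, a median of 12.87 and a highest value of 12.91. At 9.4 mg/kg the values spread from 12.64 to 13.10 with a median of 12.95, past the vehicle range on both sides. At 94.3 mg/kg they lay between 12.77 and 12.95 with a median of 12.90, and at 943 mg/kg between 12.79 and 12.96 with a median of 12.91, so the separation seen at the lowest dose was not present at the highest. The differences were -0.070 ± 0.0516 (SE, n = 6 per group, 95% interval -0.17 to 0.035, limma adjusted p = 0.920) at 0.1 mg/kg and -0.025 (limma adjusted p = 0.960) at 943 mg/kg. The SE is shared by all groups, and the SD of Cp was 0.161 at 9.4 mg/kg against 0.0285 in vehicle and 0.0350 at 0.1 mg/kg.

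The other 2 probe sets of Cp did not give the same picture. Probe set 1368418_a_at, whose deviations from group means correlated with those of the brightest (1368420_at) at r = 0.90 over 36 animals, had 2 of 6 animals at 0.1 mg/kg below the vehicle range, with a difference of -0.065 (limma adjusted p = 0.948). Probe set 1368419_at correlated with the 2 others at r = 0.41 and 0.36, values given as a description of probes read on the same arrays. It was the 1 probe set with an unadjusted p under 0.05: vehicle values lay between 8.49 and 8.75 with a median of 8.71, and values at 94.3 mg/kg between 8.29 and 8.58 with a median of 8.42. At 94.3 mg/kg 4 of 6 animals lay below the vehicle range. The difference was -0.24 ± 0.0713 (SE, n = 6 per group, 95% interval -0.38 to -0.093, limma adjusted p = 0.459). At the same dose the other probe sets of Cp differed by -0.043 and -0.034, and at 943 mg/kg 1368419_at differed by -0.036 (limma adjusted p = 0.959). In the F test its adjusted p was 0.918 (limma).

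Crp and Lbp encode proteins that recognise microbial or damaged surfaces. C-reactive protein binds phosphocholine on such surfaces. Crp values in vehicle livers lay between 11.97 and 12.25 with a median of 12.11, and at 943 mg/kg between 12.01 and 12.11 with a median of 12.05. All 6 animals at 0.1 mg/kg and all 6 at 943 mg/kg lay below the vehicle mean, but inside the vehicle range. The differences were -0.069 ± 0.0635 (SE, n = 6 per group, limma adjusted p = 0.943) at 0.1 mg/kg and -0.065 (95% interval -0.19 to 0.064, limma adjusted p = 0.912) at 943 mg/kg. The difference was negative at all 5 doses, which share their vehicle animals.

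Lipopolysaccharide binding protein (Lbp) hands bacterial lipopolysaccharide to CD14. Vehicle values lay between 8.12 and 8.57 with a median of 8.24, and values at 943 mg/kg between 8.18 and 8.38 with a median of 8.23. At 9.4 mg/kg the values lay between 8.12 and 8.98 with a median of 8.26. A single animal of that group, replicate 1, lay above the vehicle range and held the highest Lbp value of the study. The difference at 9.4 mg/kg was 0.10 ± 0.119 (SE, n = 6 per group, limma adjusted p = 0.980), and without replicate 1 it was -0.017. At 943 mg/kg the difference was -0.011 (95% interval -0.25 to 0.23, limma adjusted p = 0.994).

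Orm1 encodes alpha-1-acid glycoprotein, a plasma carrier of basic and neutral lipophilic compounds. Vehicle values lay between 11.48 and 12.39 with a median of 12.17, and values at 943 mg/kg between 11.80 and 12.61 with a median of 12.13. The lowest group median was 11.87 at 0.1 mg/kg, where values ran from 11.57 to 12.30, inside the vehicle range. The medians at 0.94, 9.4 and 94.3 mg/kg were 12.19, 12.08 and 12.15. The difference at 0.1 mg/kg was -0.18 ± 0.153 (SE, n = 6 per group, 95% interval -0.49 to 0.13, limma adjusted p = 0.934). At 943 mg/kg it was 0.035 (interval -0.27 to 0.34, limma adjusted p = 0.985). Orm1 ranged 2.20-fold over the 36 animals, and its SD within groups was 0.281, which 4.37% of all probe sets exceeded.

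Socs3, the feedback inhibitor of gp130 and JAK signalling, had a dim probe set. Its value was below the array median on 34 of 36 arrays. Vehicle values lay between 3.79 and 4.55 with a median of 4.39, values at 94.3 mg/kg between 3.63 and 4.39 with a median of 4.04, and values at 943 mg/kg between 3.95 and 4.75 with a median of 4.08. At 94.3 mg/kg 1 of 6 animals lay below the vehicle range and the rest inside it. The difference was -0.27 ± 0.163 (SE, n = 6 per group, 95% interval -0.60 to 0.062, limma adjusted p = 0.796) at 94.3 mg/kg and -0.11 (limma adjusted p = 0.945) at 943 mg/kg.

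**Figure D2:**
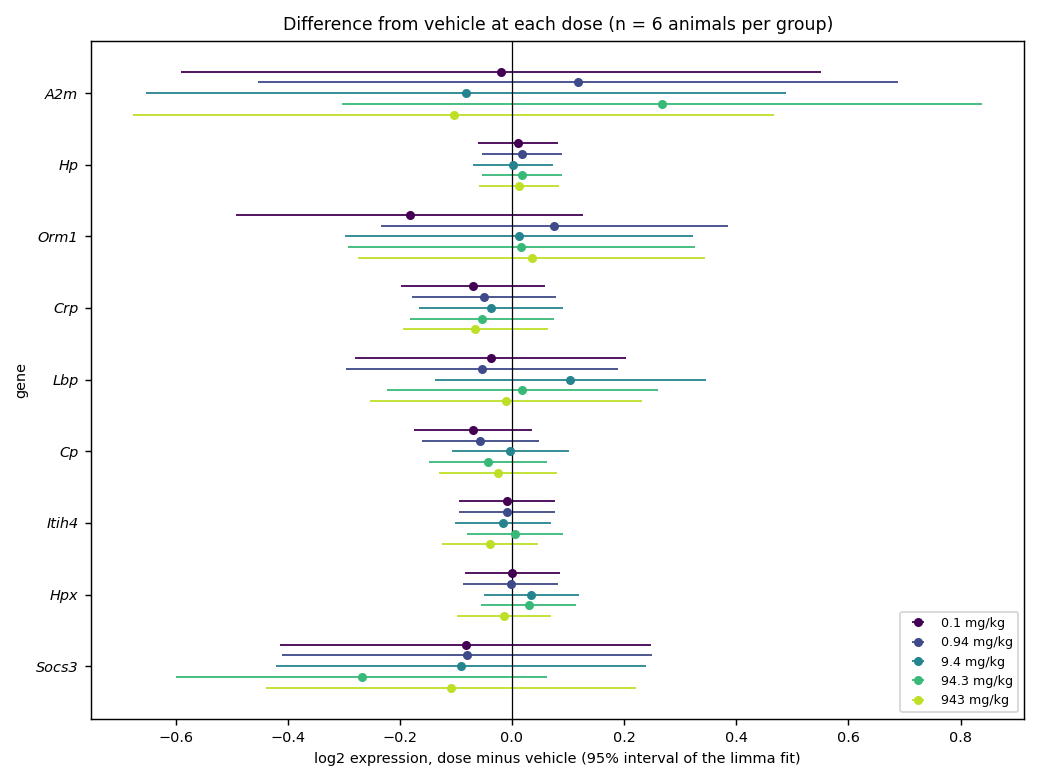
Difference in log2 expression between each dose and vehicle (horizontal axis) for the 9 genes, with 95% intervals of the limma fit and 6 animals per group. All intervals cross 0, and those of A2m, Socs3, Orm1 and Lbp are wider than those of Hp, Hpx, Itih4, Cp and Crp.

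No other gene of the acute phase response on the lists passed the test at any dose either. Of 26 further genes of positive acute phase proteins, 22 were measured, and of 10 genes of negative acute phase proteins, which fall during the response, 8 were measured. Of 28 genes of cytokine signalling to hepatocytes, 26 were measured. In each of these lists 0 genes rose and 0 fell at an adjusted p under 0.05 in limma at any of the 5 doses. At an unadjusted p under 0.05 in limma, 0 of 22 positive acute phase genes were higher and 2 were lower at 943 mg/kg, and 2 were higher and 0 lower at 9.4 mg/kg. Over all 14217 genes 5.81% had such a p at 943 mg/kg and 4.59% at 9.4 mg/kg, in either direction. Their median difference was -0.028 at 943 mg/kg and 0.0091 at 9.4 mg/kg, beside 0.0018 and 0.0024 over all 14217 genes. The median of the 26 signalling genes was -0.060 at 943 mg/kg, and that of the 8 negative acute phase genes was 0.0060. The smallest p of the F test among the positive acute phase genes was that of Nnmt, nicotinamide N-methyltransferase (limma adjusted p = 0.924), and among the signalling genes that of Hnf4a, a nuclear receptor of hepatocyte identity (limma adjusted p = 0.918). Of the 8 glucocorticoid response genes, which were listed because glucocorticoids act together with interleukin 6, 0 passed at any dose and the median difference at 943 mg/kg was -0.084.

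The members were next compared between animals of the same group. Each value was expressed as its deviation from the group mean in units of that probe set's SD within groups. Of the 396 member values, 7 lay more than 2.5 such SDs from their group mean, against 0.661% of all values on the arrays. Of these 7, 3 belonged to replicate 1 at 9.4 mg/kg, 3 to replicate 4 at 9.4 mg/kg and 1 to vehicle replicate 1. Without replicate 1 at 9.4 mg/kg, with SDs computed again, the count was 4.

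**Figure D3:**
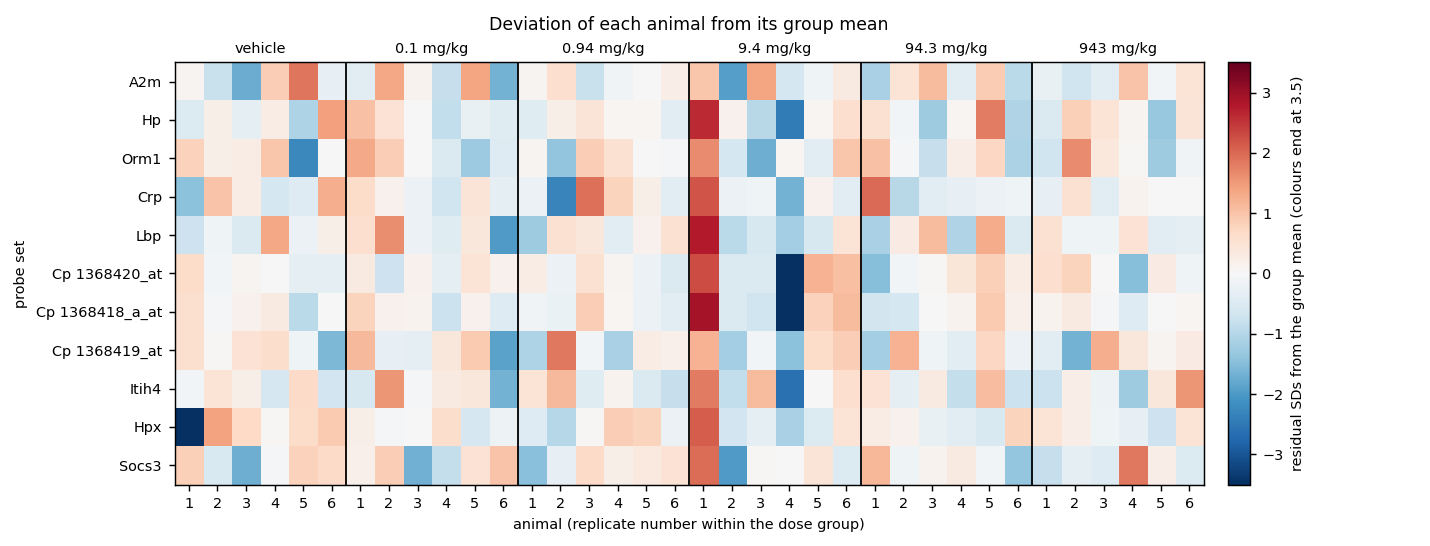
Deviation of each of the 36 animals (horizontal axis, by dose group and replicate number) from its group mean for the 11 member probe sets (vertical axis), in SDs within groups. Replicate 1 at 9.4 mg/kg is above its group mean in all 11 probe sets, and replicate 4 of the same group is below it in 10 of 11.

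Replicate 1 at 9.4 mg/kg had a raised acute phase profile. All 11 member probe sets were above their group mean, with a median deviation of 2.12 SDs, while the median over all probe sets of this animal was -0.010. In 8 of 11 member probe sets it was the highest of the 36 animals, against 3.51% of all probe sets. For Hp (13.80, with 13.79 the highest elsewhere) and Itih4 (13.22, with 13.21 elsewhere) the lead was small. Of the members 3 of 11 probe sets (those of Hp and Lbp and 1 of Cp) were more than 2.5 SDs high, against 0.673% of all probe sets. This animal was singled out because at least 2 member probe sets lay more than 2.5 SDs from their group mean in 1 direction. Its member counts follow in part from that choice, so setting them beside the shares of all probe sets is a description.

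By gene, Lbp reached 8.98 in this animal, and the highest value in the other 35 was 8.59. Socs3 was at 4.80, with 4.75 the highest elsewhere, Crp at 12.31 (12.27 elsewhere), and Hpx at 13.33 (13.25 elsewhere). Against the mean of its group, which includes the animal itself, the deviation corresponded to 1.52-fold for Lbp, 1.5-fold for Socs3, 1.38-fold for Orm1 and 1.06-fold for Hp. A2m, at 9.27, was only the ninth highest of the 36 animals, and Orm1, at 12.59, the second highest.

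Genes outside the member list went with these values. Over all probe sets of this animal the median deviation was -0.010 SDs, and 0.673% lay more than 2.5 SDs above the group mean. Of the 22 measured positive acute phase genes, 18 were above the group mean and 6 were more than 2.5 SDs above it. These were the 3 fibrinogen chains Fga, Fgb and Fgg, the complement inhibitor chain C4bpa, the protease inhibitor Serpina3n and the siderophore-binding lipocalin Lcn2. Serpina3n was at 12.53, with 12.11 the highest among the other 5 animals of the group, and Lcn2 at 6.59, with 4.97 the highest among them. Fga was at 13.86 (13.64 among them), Fgb at 13.79 (13.60) and Fgg at 13.87 (13.78). Of the 26 measured signalling genes, 16 were above the group mean in this animal and 10 below it, and 2 were more than 2.5 SDs above it. These 2 were Stat3 and Tnfrsf1a. Stat3, the transcription factor downstream of gp130, was at 9.54 with 8.01 the highest in the rest of the group, and the tumour necrosis factor receptor Tnfrsf1a at 9.73 with 9.16. The interleukin 1 receptor Il1r1, at 8.32, was also the highest of the 36. The probe set of Il6 itself read 2.34 in this animal, ninth of 36, and was below the array median on all 36 arrays.

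Not every listed gene was high in this animal. The mannose-binding lectin Mbl2, at 11.72, was the lowest of 36 animals. Of the 8 negative acute phase genes, 4 were above and 4 below the group mean, among the latter the retinol carrier Rbp4 at 13.52, with rank 35 of 36. Among the signalling genes below the group mean, the STAT inhibitor Pias3 ranked 34 of 36, the C/EBP factor Cebpa 33 and the leukaemia inhibitory factor receptor Lifr 30. Of the 13 measured interferon response genes, 2 were above the group mean. One of these, Irf1, at 8.10, was the highest of 36 animals, and the other, Isg15, ranked 13.

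Markers of other cells also differed in replicate 1 at 9.4 mg/kg. All 6 measured neutrophil markers were above the group mean, and their mean log2 level was 4.48, where vehicle animals ran from 3.46 to 3.76 and the 9.4 mg/kg group from 3.58 to 4.48. S100a8 and S100a9, the calprotectin subunits of neutrophils, were at 6.11 and 7.52, with 4.32 and 5.74 the highest in the rest of the group. Cxcr2, Csf3r, Mmp8 and Camp, which define neutrophils more closely, were below the array median on all 36 arrays. Of 8 stellate cell and fibroblast markers, 7 were above the group mean, with a mean level of 7.53 against 6.81 to 7.49 in vehicle, and of 9 Kupffer cell and macrophage markers 4 were. Acta2, Col1a1 and Dcn of the stellate list were the highest of 36 animals. Of 8 lymphocyte markers, 5 were above the group mean, with a mean level of 4.50 against 4.09 to 4.42 in vehicle. Another animal of the 9.4 mg/kg group reached 4.54. The B cell markers Cd79b (5.17) and Ms4a1 (4.94) were the highest of 36, but lay below the array median on 23 and 29 of 36 arrays. Of 6 endothelial markers, 4 were above the group mean, with a mean level of 8.26 against 8.13 to 8.25 in vehicle and up to 8.28 in the rest of the group. Pecam1, at 6.60, was the highest of 36. All 4 cholangiocyte markers were above the group mean, with a mean level of 4.92, equal to the highest vehicle animal after rounding. All 4 were also above it in replicate 4 of the same group, which had the higher mean level of 4.95. Krt7 and Cftr of this list were below the array median on all 36 arrays. Of the 9 hepatocyte markers, Arg1, Cps1 and Cyp2c11 were below the group mean in replicate 1 and the rest above it. Tdo2, at 12.43, was the highest of 36 animals. The mean level of the hepatocyte markers was 12.985, the highest of the group, where vehicle animals ran from 12.86 to 12.99. Fgb of the positive acute phase genes and Alb of the negative ones are also on the hepatocyte list. Its mean is thus not a separate reading. The part of all these cells in the acute phase values was not tested.

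**Figure D4:**
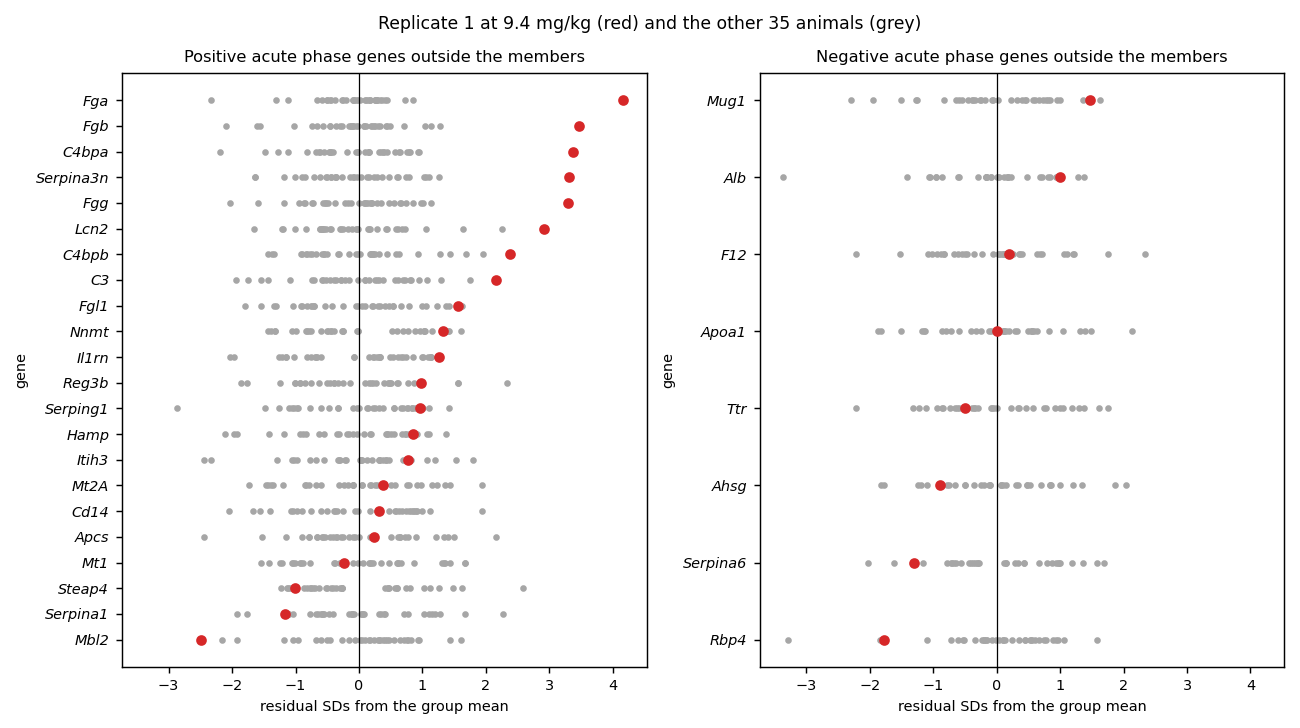
Deviation from the group mean, in SDs within groups (horizontal axis), of 22 positive (left) and 8 negative (right) acute phase genes outside the member list, for replicate 1 at 9.4 mg/kg (red) and the other 35 animals (grey). Fga, Fgb, Fgg, C4bpa, Serpina3n and Lcn2 of the red animal lie more than 2.5 SDs above the group mean, and Mbl2 lies lowest.

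Replicate 4 at 9.4 mg/kg deviated the other way. In this animal 1 of the 11 member probe sets (Orm1) was above the group mean, and the median deviation was -1.45 SDs. It was the lowest of 36 animals for Hp (13.64), Itih4 (12.98) and 2 of the Cp probe sets (12.64 on the brightest), 4 of 11 probe sets against 4.02% of all probe sets. Both of these Cp probe sets and Itih4 were more than 2.5 SDs low, 3 of 11 against 0.986% of all probe sets. Replicate 4 was singled out by the same rule as replicate 1, so these counts are a description too. Both animals enter the same group mean, which the high values of replicate 1 raise, so their opposite deviations are not independent.

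In replicate 4, 6 of the 22 positive acute phase genes were above the group mean, which includes replicate 1. Fga, at 13.48, was the lowest of 36. Of the 26 signalling genes 10 were above the group mean and 1, Il6st, was more than 2.5 SDs below it, against 0.986% of all probe sets. The gp130 subunit Il6st, at 9.52, and Il1r1, at 7.18, were the lowest of 36 animals. In the other direction, the cytokine gene Il1b, at 6.50, was the highest of 36 and the cytokine gene Osm, at 3.42, ranked 2. The Osm probe set was below the array median on all 36 arrays. All 13 interferon response genes were above the group mean in this animal, with a median deviation of 0.470 SDs, and 2 of 9 hepatocyte markers were. The mean level of those 9 markers was 12.83, where vehicle animals ran from 12.86 to 12.99. Fgb, on this list as well as among the positive acute phase genes, ranked 35 of 36 in replicate 4. The replicate 4 array had 2.39% of all probe sets past 2.5 SDs in either direction and the replicate 1 array 0.995%. The part of the hepatocyte markers in the low values was not tested. Both animals belong to 1 dose group, in which the SD of Hp (0.0542), of Cp (0.161) and of Itih4 (0.0852) was the highest of the 6 groups, while the medians of all 3 genes lay inside the vehicle range. These SDs include the values by which the animals were singled out, so their height follows in part from that choice.

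The third animal with a deviating value, vehicle replicate 1, was low in Hpx alone among the members (12.98, a deviation of -3.71 SDs). Of the 11 member probe sets 6 were above the group mean in it. This array had 3.72% of all probe sets past 2.5 SDs.

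Members were then compared with each other across the 36 animals, on deviations from group means so that dose differences played no part. Of the 36 pairs of the 9 genes, 31 correlated positively, with a median r of 0.29 and a range from -0.21 to 0.64. Without replicate 1 at 9.4 mg/kg, 26 of 36 were positive, the median r was 0.11 and the range ran from -0.30 to 0.59, so the general tendency of the members to rise and fall together rests in large part on that animal. After Benjamini-Hochberg adjustment over the 36 pairs, 4 pairs passed at 0.05 in a two-sided permutation test with 100000 permutations of animals within groups. Hp and Orm1 had r = 0.64 and rho = 0.68 (permutation p = 0.00030 and 7.0e-05, adjusted p = 0.0103 and 0.00252), and r was 0.69 without the 2 animals farthest from the median of Hp. The correlation of Hp with Orm1 was positive in each of the 6 groups.

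Crp and Hpx had r = 0.59 and rho = 0.45 (permutation p = 0.00057 and 0.0102, adjusted p = 0.0103 and 0.0660), with r = 0.53 without the 2 farthest animals and a positive r in 4 of 6 groups. A2m and Lbp had r = 0.59 and rho = 0.54 (permutation p = 0.00143 and 0.00285, adjusted p = 0.0172 and 0.0513), with r = 0.63 without the 2 farthest animals and a positive r in 6 of 6 groups. Hp and Crp had r = 0.55 and rho = 0.48 (permutation p = 0.00218 and 0.00494, adjusted p = 0.0196 and 0.0593). For Hp and Crp r was 0.34 without the 2 farthest animals, so the size of this correlation rests in part on them.

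A2m gave low or negative values with Orm1, Crp and Hp. Its r was -0.21 with Orm1, -0.15 with Crp and 0.064 with Hp, against 0.59 with Lbp and 0.48 with Itih4 (adjusted permutation p = 0.0573). Without replicate 1 at 9.4 mg/kg, 2 of the 4 pairs still passed after adjustment, Hp with Orm1 (r = 0.57) and A2m with Lbp (r = 0.59), both at an adjusted permutation p of 0.0261. All pairs share the array of each animal, and the number that passed depended on the scaling: it was 1 (Crp with Hpx) after a further quantile normalization and 10, all 4 pairs among them, after centring each array on its median.

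**Figure D5:**
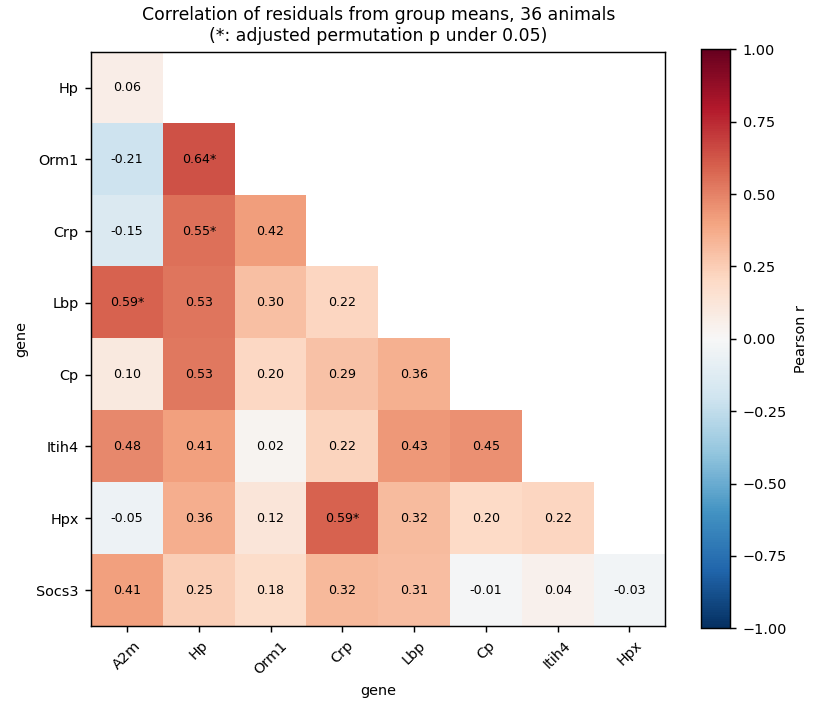
Pearson correlation across 36 animals of deviations from group means for each pair of the 9 genes, with a star where the permutation p adjusted over 36 pairs is under 0.05. The pairs Hp with Orm1, Crp with Hpx, A2m with Lbp and Hp with Crp are starred, and A2m is at or below 0.10 with Hp, Orm1, Crp, Cp and Hpx.

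The genes most like each member were ranked by r of the same deviations over the 36 animals, among all genes with a probe set of their own. These values are a description, since the top of a ranking over 14217 genes is high by selection. For A2m they were Fut8, a fucosyltransferase (r = 0.78), the galectin Lgals2 (0.75) and the calpain Capn2 (0.72). For Orm1 they were Upb1, beta-ureidopropionase (0.78), the membrane protein Tmem176a (0.78) and Mettl7b (0.75). For Hp they were Tmem176a (0.73), its neighbour in name Tmem176b (0.68) and the interleukin 1 receptor Il1r1 (0.68). Hp and Orm1 thus shared Tmem176a among their 3 nearest genes.

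The genes nearest to Lbp were the acute phase gene Serpina3n (0.77), the folate enzyme Fpgs (0.71) and the fibrinogen chain Fgb (0.69). Without replicate 1 at 9.4 mg/kg the r of Lbp was 0.65 with Serpina3n and 0.50 with Fgb. Cp was nearest to the complement gene C5 (0.71, and 0.65 without that animal), Slc41a2 (0.66) and Noxo1 (0.65). Socs3 was nearest to the potassium channel Kcnh1 (0.71), the MAX interactor Mxi1 (0.70) and the mannose-binding lectin Mbl1 (0.69). Itih4 was nearest to Wipf3 (0.68), Inhca (0.66) and Dlc1 (0.64), Crp to Podxl2 (0.71), Dmpk (0.62) and C13h1orf116 (0.61), and Hpx to Steap1 (0.69), Ctse (0.68) and Utp6 (0.66). Kcnh1, Wipf3, Podxl2, C13h1orf116 and Steap1 were below the array median on all 36 arrays, Noxo1 on 35 and Ctse on 32.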

How the data were processed

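The authors deposited log2 expression values per probe set, which RMA (affy) had produced according to the submitters' processing notes, without a version in the sources used here. Array controls (57 probe sets) were dropped and no filter on signal was applied to the remaining 31042. GEO's platform annotation names 1 gene for 20826 of these, several for 436 and none for 9780. Where a gene has several, the one with the highest mean represents it.

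One limma fit (version 3.58.1, R 4.3.3, eBayes, no variance trend) with group means covered the 36 arrays and replaced the R/maanova test of the series' design text. P-values are two-sided, Benjamini-Hochberg adjusted over all probe sets, with a threshold of 0.05. The doses were tested singly, together in an F test, and as a slope over dose rank. Pairs of genes were tested by permuting animals within groups (Python 3.11.15, numpy 2.4.6, pandas 2.3.3, matplotlib 3.10.9 for figures). Both procedures were tested on simulated data.

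The members, lists and tests were chosen with earlier results of these data known. Each member is described at 943 mg/kg and at the dose with its smallest p, and the 3 genes most like it were ranked. In a list, naming followed the smallest F test p, for at most 4 genes. Genes named in single animals were chosen after their values were seen. The number of arrays limits the precision: the median SE of a difference over all probe sets was 0.0831. Alternatives were a filter on dim probe sets, robust moderation with a trend, weights per array, another scaling or centring, no moderation, a fit of 2 groups, other dose scores, other thresholds of deviation, and leaving out animals.

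The groups share replicate numbers from 1 to 6, and the sample titles do not say whether equal numbers pair the animals. Over 90 pairs of arrays with the same number, r of deviations from group means ran from -0.27 to 0.29. The median was 0.0026, and 18 were over 0.1. Over pairs of arrays with different numbers the median r was -0.0094. These values cannot decide whether equal numbers mark paired animals.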

Additional observations from a re-analysis of the deposited data

Results flagged for a closer look

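Of the 66 groups of 6 values (11 member probe sets in 6 groups), 5 held a lowest or highest animal whose gap to its nearest neighbour, as a share of the group's range, was above the 95% critical value of Dixon's test. Chance gives about 1 in 20 such groups. Vehicle replicate 5 was low for Orm1, the carrier alpha-1-acid glycoprotein, at 11.48, with 12.11 the next value. Vehicle replicate 1 was low for the haem scavenger gene Hpx at 12.98, with 13.18 next. Replicate 1 at 94.3 mg/kg was high for Crp at 12.27, with 12.05 next. For the ferroxidase gene Cp, replicate 3 at 0.94 mg/kg was high on probe set 1368418_a_at at 12.40 (12.32 next), and vehicle replicate 6 was low on 1368419_at at 8.485 (8.65 next).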

How the results depend on the processing

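The count of acute phase genes past the test stayed at 0 at every dose, in the F test and in the trend under each alternative run, with each animal left out in turn (from 0 to 0) and with the replicate number as a block, where 0 of 31042 probe sets passed at each dose. In all, 341 recomputed values kept their direction and their side of the threshold, and 14 recomputed values of 7 differences, none of them called, changed sign. After a further quantile normalization these were Lbp (0.0076), Cp (0.0013) and Hpx (0.013) at 943 mg/kg, and with array weights Orm1 at 943 mg/kg (-0.0033). Without vehicle replicate 1, the array least correlated with the others, Hpx at 9.4 mg/kg was -0.0054. With single animals left out, the difference at 943 mg/kg ran from -0.29 to 0.093 for A2m (positive without vehicle replicate 5), from -0.091 to 0.11 for Orm1 (negative without vehicle replicate 5 or, at -0.058, 943 mg/kg replicate 2), from -0.042 to 0.048 for Lbp (positive without vehicle replicate 4 or, at 0.0058 and 0.0041, 943 mg/kg replicates 5 and 6) and from -0.054 to 0.00066 for Hpx (positive without vehicle replicate 2). At 9.4 mg/kg it ran from -0.017 (without replicate 1 of that dose) to 0.16 for Lbp and from -0.0054 to 0.049 for Hpx. The cause was not tested. The 7 deviating values became 40 with the group median and scaled median absolute deviation, 3 at a threshold of 3 SDs and 4 without replicate 1 at 9.4 mg/kg, an alternative chosen after seeing the data. The 4 correlated pairs became 2 without the 2 animals that deviate most, 2 without replicate 1 at 9.4 mg/kg alone (chosen after seeing the data), 1 after quantile normalization, 1 by Spearman rho and 10 after median centring. With 6 animals per group, small shifts of A2m, Orm1 and Socs3 were not detectable.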
